A study of Mus musculus with 8 samples.

Results

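The homeostatic lymphoid chemokines examined here were the ligands Cxcl12, Cxcl13, Ccl19 and Ccl21a and the receptors Cxcr4, Cxcr5, Ccr7, Ccr6 and Ackr3, chosen by symbol. The 9 symbols matched 11 of the 32285 rows of the gene lists, because Ccl19 and Ccl21a each had a second row on an unplaced scaffold that held 0 UMIs (unique molecular identifiers, which count captured transcripts). Single-cell RNA-seq (10x Genomics) was done on the stromal vascular fraction (SVF), the cells left after collagenase digestion and removal of floating adipocytes, of inguinal white adipose tissue (iWAT, the fourth depot) from mice that the labels give as C57BL/6 and 8 weeks old. One group ate ad libitum (Ad-Lib; libraries 1, 3, 5 and 7), and the other had meals in restricted windows of the night (twice-a-night feeding, TAN; libraries 2, 4, 6 and 8). The mice carried no transgene named in the labels. The study's text gives the mice of the single-cell experiment otherwise, as C57BL/6J males several months of age that had been on these schedules for months on regular chow, and this difference from the labels was not settled here. It treats each library as an animal, which the labels do not state, so p-values measure the spread between libraries. Its methods exclude lymph nodes from the inguinal pads used for flow cytometry and RNA-sequencing, whereas the protocol in the labels, with other digestion and spin settings, does not mention nodes.

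Homeostatic chemokines are made without inflammation and guide lymphocytes and dendritic cells through lymphoid tissue. Cxcl12 acts on Cxcr4 and holds leukocytes and progenitors in their niches, and the atypical receptor Ackr3 binds and internalises Cxcl12 without classical G-protein signalling. Cxcl13 draws Cxcr5+ B cells into follicles, and Ccl19 and Ccl21 bring Ccr7+ naive T cells and migrating dendritic cells into the T zone, with Ccl21 also made by the lymphatic vessels through which dendritic cells leave tissue. Ccr6 is found on B cells and on some T cells and binds Ccl20.

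The ligands fall into the CXC and CC families by the spacing of their first cysteines, which the coding sequence shows directly. Below are stretches of the coding strand from the GENCODE M21 transcripts of GRCm38, 5′ to 3′, with the codons of the first pair of cysteines in capitals. Cxcl12 and Cxcl13 had 1 codon between the cysteines, and Ccl19 and Ccl21a had 0.
Cxcl12: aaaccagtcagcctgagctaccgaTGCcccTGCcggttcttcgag
Cxcl13: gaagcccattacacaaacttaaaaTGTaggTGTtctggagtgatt
Ccl19: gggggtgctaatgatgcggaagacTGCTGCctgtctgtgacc
Ccl21a: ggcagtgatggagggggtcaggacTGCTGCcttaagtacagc
The Cxcl12 stretch lay at chr6:117171484-117171528 on the plus strand, in exon 2 of 4, and the Cxcl13 stretch at chr5:95958640-95958684 on the plus strand, also in exon 2 of 4. The Ccl19 stretch lay at chr4:42755248-42755289 on the minus strand in exon 2 of 4, and the Ccl21a stretch spanned the intron between exons 1 and 2 of 4, within chr4:42773723-42773852 on the minus strand. The coding sequence of Ccl21b, a near copy of Ccl21a, differed from it at 2 of 399 bases (99.5% identity). The Ccl21b rows held 0 UMIs, so that a Ccl21a count cannot be told apart from a count of Ccl21b. The rows of Ccl21c held 0 UMIs too, but its identity with Ccl21a was not measured. The receptor genes lay at chr1:128588199-128592293 (Cxcr4, minus strand), chr9:44511787-44561877 (Cxcr5, minus strand), chr11:99144196-99155077 (Ccr7, minus strand), chr17:8236043-8257141 (Ccr6, plus strand) and chr1:90203980-90216751 (Ackr3, plus strand).

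The files held 44427 cell barcodes and 232345333 UMIs, 25320800 to 37140950 a library, and 36370 barcodes passed the filters (17551 Ad-Lib, 18819 TAN). Of these, 174 barcodes occurred in more than 1 library, with 2 to 14 in each pair. Cells were clustered without the 9 members and named from marker lists, and every name means cells resembling that type by those markers. The classes that matter here were 4175 Dpp4+ adipocyte progenitor cells (APCs), 3840 Icam1+ APCs, 1231 F3+ APCs, 6134 blood endothelial, 1260 mural, 4245 macrophage, 2155 naive-like T, 1695 other T and 2780 B cells. The Dpp4+, Icam1+ and F3+ APCs correspond to the interstitial, committed and adipogenesis-regulating progenitor types described in mouse fat. Class sizes differed between groups, with 899 F3+ APCs in Ad-Lib and 332 in TAN. The F3+ sizes depend on the naming. A further cluster of 1218 APCs, 355 in Ad-Lib and 863 in TAN, passed 3 F3+ APC markers and 1 Icam1+ APC marker. Its leading genes among APCs were leukocyte transcripts such as Cd52 and Coro1a, so it was kept out of the subtypes. Levels are given as CPM, the UMIs of a gene scaled to a total of 1000000 UMIs for all cells of the class in a library. TAN 6 stood apart, with 551 of the 1218 APCs kept out of the subtypes, and Ad-Lib 3 held most of the Ad-Lib lymphocytes. The kit tags 1 end of each transcript, so CPM was not divided by gene length. With libraries as replicates, a change was called in edgeR's quasi-likelihood test where it was at least 1.5-fold and the p adjusted over all genes tested was under 0.05.

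Most ligand UMIs were in stromal and endothelial cells, and most UMIs of the receptors other than Ackr3 were in leukocytes. Of all Cxcl12 UMIs, 45.4% were in blood endothelial cells and 17.0% in Icam1+ APCs. Dpp4+ APCs held 60.9% of Cxcl13 UMIs and 66.3% of Ackr3 UMIs, and macrophages held 15.0% of Cxcl13 UMIs, mainly in TAN 2. Icam1+ and F3+ APCs held 53.4% and 26.5% of Ccl19 UMIs. B cells held 83.7% of Cxcr5, 66.0% of Ccr6 and 33.1% of Cxcr4 UMIs. Blood endothelial cells held 13.5% of Cxcr4 UMIs, beside 21.9% in T cells. Ccr7 UMIs were spread over migratory dendritic cells (31.7%), naive-like T cells (30.7%) and B cells (20.1%).

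**Figure D1:**
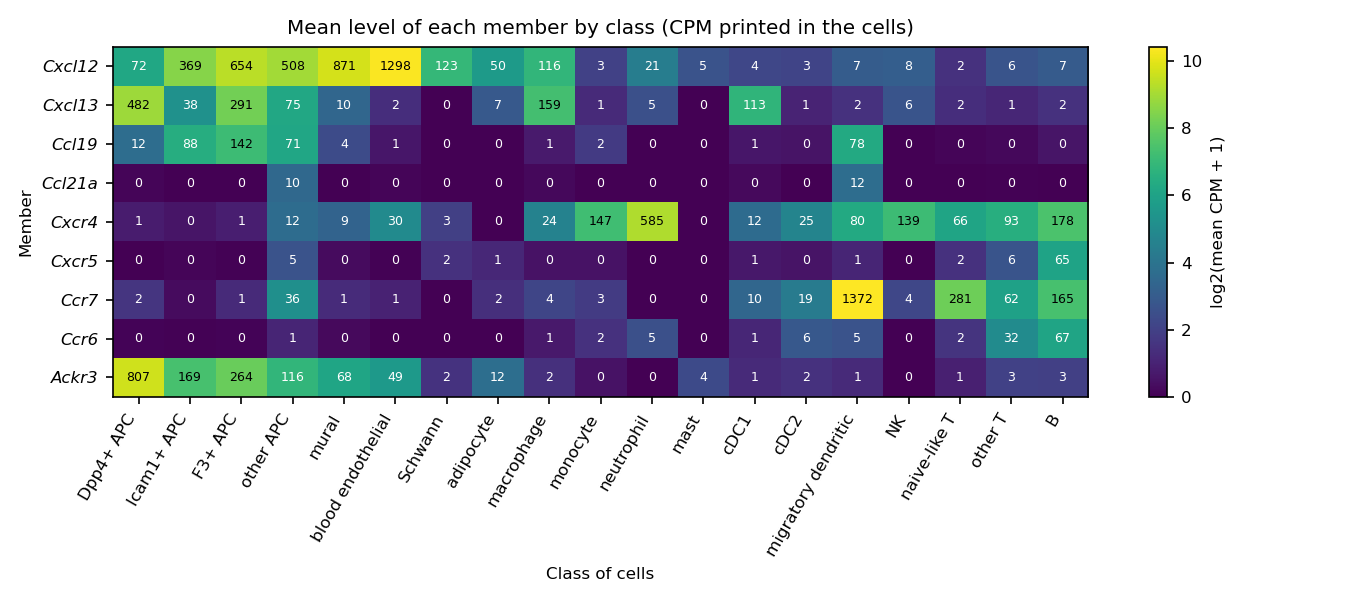
Mean CPM of each of the 9 members (rows) in named classes of cells (columns), over the libraries with at least 10 cells of the class, coloured as log2(CPM + 1) and printed in each cell as CPM. Cxcl12 was highest in blood endothelial cells (1298), Cxcl13 and Ackr3 in Dpp4+ APCs (482 and 807), Ccl19 in F3+ APCs (142), Ccr7 in migratory dendritic cells (1372), Cxcr5 in B cells (65.4) and Cxcr4 in neutrophils (585); the few lymphatic endothelial cells that held Ccl21a were too scarce to be drawn.

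In TAN, Cxcl12 and Cxcl13 were higher in Dpp4+ APCs, Cxcl12 was higher in F3+ APCs, and Ackr3 was lower in blood endothelial cells. These were the 4 calls (3 higher and 1 lower) among 42 tests of a member, made in 10 classes and in all cells together. Without TAN 6 all 4 remained past both limits (Cxcl12 log2 0.86 and Cxcl13 log2 1.26 in Dpp4+ APCs, Cxcl12 log2 1.17 in F3+ APCs and Ackr3 log2 -0.77 in blood endothelial cells). No member was called in Icam1+ APCs, T, B, dendritic, macrophage or mural cells. The classes of lymphatic endothelial, naive-like T and migratory dendritic cells had too few libraries with 10 cells for a test.

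Cxcl12 had its highest level in blood endothelial cells (1298 ± 334 CPM, SD, n = 8), followed by mural cells (871 ± 40.7). In 7 libraries blood endothelial cells were above every mural value, and in Ad-Lib 1 they were below all of them, at 737 CPM against 790 to 934. F3+ APCs (654 ± 300) and Icam1+ APCs (369 ± 98.7) came next among named subtypes, with overlap between neighbours, and Dpp4+ APCs held 72.4 ± 21.9. T and B cells held 4.28 ± 2.44 and 6.95 ± 5.29.

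In F3+ APCs, Cxcl12 stood at 395, 366, 462 and 385 CPM in Ad-Lib libraries 1, 3, 5 and 7 and at 1066, 1034, 890 and 630 in TAN libraries 2, 4, 6 and 8. Every TAN library was above every Ad-Lib library. The increase was 2.22-fold (log2 1.15, SE 0.15, adjusted p = 0.00108). In this class the 6 Icam1+ APC markers summed to 1834 to 2046 CPM in Ad-Lib and 1730 to 2276 in TAN (1 of 6 called higher), the 6 macrophage markers to 18.2 to 36.7 and 11.8 to 18 without overlap, and the 6 T markers to 9.25 to 27.6 and 0 to 112. Their part in the Cxcl12 difference was not tested. Cxcl12 was the member called of 4 tested in this class, where 0.380% of the 8414 genes tested were called, 0.119% as higher, and 3.30% had every TAN library above every Ad-Lib library. In the cluster with F3+ markers kept out of the subtypes, Cxcl12 was at 400 ± 73.3 CPM in Ad-Lib and 616 ± 220 in TAN, with overlap. Removing called doublets before clustering ended the F3+ APC call (log2 0.78, adjusted p = 0.0682). In that clustering a like cluster, which passed 3 F3+ APC markers and was led among APCs by leukocyte transcripts such as Cd52 and Coro1a, was named F3+ APC. A like cluster was also named F3+ APC at a mitochondrial limit of 20%, where Cxcl12 stayed called (log2 0.92). It also stayed called at a finer clustering (log2 0.76), but there a cluster of 2138 cells led by Agt and Gdf10 joined as well, and the class of 3559 cells in place of 1231 was largely another one.

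In Dpp4+ APCs, Cxcl12 stood at 47.7, 54.8, 60.4 and 55.7 CPM in Ad-Lib libraries 1, 3, 5 and 7 and at 100, 92.8, 67.1 and 101 in TAN libraries 2, 4, 6 and 8. TAN 6 was nearest to the Ad-Lib range, and the groups did not overlap. The increase was 1.68-fold (log2 0.75, SE 0.12, adjusted p = 0.00787). Transcripts of the 6 Icam1+ APC markers also moved in this class, summing to 217 to 281 CPM in Ad-Lib and 335 to 443 in TAN, with 1 of 4 tested called higher, and their part in the Cxcl12 difference was not tested. Markers of blood endothelial cells, the class highest in Cxcl12, were not summed here. In cells of the adipocyte class Cxcl12 was at 34.5 ± 9.97 CPM in Ad-Lib and 66.0 ± 6.98 in TAN without overlap, and that class was not tested. Cxcl12 and Cxcl13 were 2 of 4 members tested in Dpp4+ APCs, where 0.600% of the 10662 genes tested were called, 0.159% as higher, and 2.94% had every TAN library above every Ad-Lib library.

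In Icam1+ APCs, Cxcl12 stood at 270, 287, 320 and 306 CPM in the Ad-Lib libraries and at 553, 460, 338 and 416 in the TAN libraries, again without overlap. The difference passed the adjusted p but not the fold (1.47-fold, log2 0.56, SE 0.13, adjusted p = 0.0291). Without TAN 6 the value was log2 0.68 (adjusted p = 0.00293), and without TAN 8 log2 0.61 (adjusted p = 0.0287), both past the fold limit. Of genes tested in Icam1+ APCs, 1.71% were called and 5.50% had every TAN library above every Ad-Lib library. In blood endothelial cells, Cxcl12 stood at 737, 981, 1345 and 1238 CPM in Ad-Lib and at 1370, 1304, 1812 and 1600 in TAN. These overlapped, since Ad-Lib 5 was above TAN 4. The difference (1.44-fold, log2 0.53, SE 0.14, adjusted p = 0.0467) did not reach the fold limit, and without Ad-Lib 5 it did (log2 0.63, adjusted p = 0.0167). In mural cells, the contractile cells around vessels, Cxcl12 was at 790 to 880 CPM in Ad-Lib and 847 to 934 in TAN (log2 0.03, SE 0.10, adjusted p = 0.973), a class added after its level was seen.

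Whether the Cxcl12 difference itself varied among the 3 APC subtypes and blood endothelial cells was tested from each library's difference in log2(CPM + 1) between 2 classes, by an exact two-sided permutation test over 70 assignments, whose smallest p is 0.0286. The smallest p was between Icam1+ and F3+ APCs, where the Icam1+ level minus the F3+ level moved from -0.44 in Ad-Lib to -1.03 in TAN (p = 0.0286, adjusted p = 0.262 over 11 pairs by the exact permutation test). The F3+ APC level minus the blood endothelial level moved by slightly more, from -1.38 to -0.77 (exact permutation p = 0.114, adjusted p = 0.262). None of these 6 pairs passed after adjustment over the 11 pairs run for all members, so a different size of response among these 4 classes was not shown. With 0.0286 the smallest p possible, adjustment over 11 pairs leaves none under 0.05 unless at least 7 reach it, so the adjusted values say little. No pair with mural cells or macrophages was tested.

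**Figure D2:**
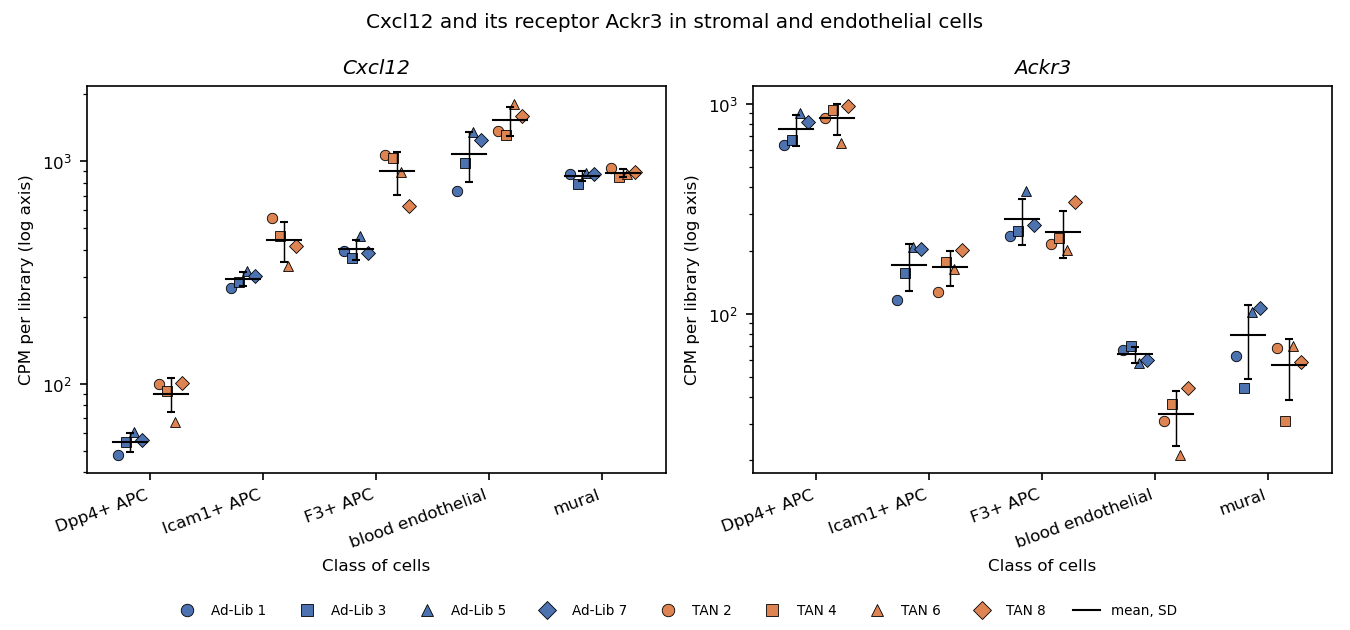
Cxcl12 (left) and Ackr3 (right) in CPM per library on a log axis, in 3 APC subtypes, blood endothelial and mural cells; each symbol is a library, blue Ad-Lib and orange TAN, with the mean and SD in black. Cxcl12 of the TAN libraries lies above all Ad-Lib libraries in each APC subtype and level with them in mural cells, and Ackr3 lies below all Ad-Lib libraries in blood endothelial cells.

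Ackr3, which takes up Cxcl12, was highest in Dpp4+ APCs (807 ± 137 CPM, n = 8), apart from every other class, followed by F3+ (264 ± 64) and Icam1+ APCs (169 ± 35.1), which overlapped. Among these subtypes Dpp4+ APCs thus had the highest Ackr3 and the lowest Cxcl12 level. In single cells, 87.0% of Dpp4+ APCs had an Ackr3 UMI and 0.863% of B cells did, at median depths of 9461.5 and 8472 UMIs (Ad-Lib and TAN) in Dpp4+ APCs and 3546 and 3433 in B cells. With cells thinned to 1000 UMIs the shares were 48.9% and 0.197%, after leaving out 83 Ad-Lib and 100 TAN Dpp4+ APCs and 3 Ad-Lib and 24 TAN B cells that were shallower.

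In blood endothelial cells, Ackr3 stood at 67.5, 70.1, 58.2 and 60.4 CPM in the Ad-Lib libraries and at 30.7, 37.1, 21.2 and 44.2 in the TAN libraries. Every TAN library was below every Ad-Lib library. The level was 1.91-fold higher in Ad-Lib (log2 -0.93 for TAN, SE 0.16, adjusted p = 0.00523). It was 1 of 3 members tested in this class, where 2.16% of the 10482 genes tested were called, 1.19% as lower, and 5.07% had every TAN library below every Ad-Lib library. Transcripts of the 6 APC markers moved with it, at a summed 63.9 to 182 CPM in Ad-Lib and 46.7 to 90.5 in TAN, with 3 of 6 called lower. Those of the 6 Dpp4+ APC markers moved the other way, from 233 to 284 CPM in Ad-Lib to 359 to 397 in TAN, with 1 of 3 tested called higher. In the endothelial cells that held no UMI of the 6 APC markers, a set added after seeing these levels, the decrease in Ackr3 was as large (log2 -1.04, SE 0.16, adjusted p = 0.00202). In APCs the Ackr3 groups overlapped in all 3 subtypes: log2 0.18 in Dpp4+ (adjusted p = 0.651), -0.06 in Icam1+ (0.902) and -0.21 in F3+ APCs (0.763). Mural cells gave log2 -0.46 (adjusted p = 0.496).

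Cxcl13, the B-cell attractant, was highest in Dpp4+ APCs (482 ± 218 CPM, n = 8) and next in F3+ APCs (291 ± 135), and these overlapped. In Dpp4+ APCs it stood at 285, 299, 357 and 305 CPM in Ad-Lib libraries 1, 3, 5 and 7 and at 756, 689, 386 and 777 in TAN libraries 2, 4, 6 and 8. TAN 6 was just above the highest Ad-Lib library, and the groups did not overlap. The increase was 2.11-fold (log2 1.08, SE 0.17, adjusted p = 0.00787). T-cell marker transcripts were present at a summed 2.05 to 26.0 CPM in the Ad-Lib and 2.33 to 88.6 CPM in the TAN libraries of this class. Among Dpp4+ APCs without a UMI of the T and B markers other than Ebf1, which APCs also express, the increase was as large (log2 1.07, SE 0.16, adjusted p = 0.00566). T and B cells held Cxcl13 at 1.24 ± 2.00 and 1.80 ± 2.57 CPM, so leaving such cells out could change little. Macrophage markers in this class summed to 23.7 to 38.7 CPM in Ad-Lib and 14.9 to 36.9 in TAN. No subset without macrophage markers was made.

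The transcript was uneven among Dpp4+ APCs, with a Cxcl13 UMI in 39.0% of the cells, both Cxcl12 and Cxcl13 in 13.7% and neither in 42.0%. Against this, 0.612% of B cells held a Cxcl13 UMI, at the lower depths given above. Thinned to 1000 UMIs, the shares for Cxcl13 were 19.4% and 0.145%.

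In the other APC subtypes Cxcl13 was not called. In F3+ APCs it stood at 402, 185, 243 and 189 CPM in Ad-Lib and 516, 408, 131 and 254 in TAN (log2 0.35, SE 0.31, adjusted p = 0.799). In Icam1+ APCs, where levels were lower, it stood at 42.4, 14.0, 17.9 and 14.7 CPM in Ad-Lib and 113, 60.5, 7.81 and 31.8 in TAN (log2 1.27, SE 0.49, adjusted p = 0.198). The groups overlapped in both, with TAN 6 the lowest of all libraries in each. The Cxcl13 difference in Dpp4+ APCs was not shown to differ from that in F3+ APCs (difference of the log2 differences 0.76, exact permutation p = 0.114, adjusted p = 0.262) or Icam1+ APCs (0.17, exact permutation p = 0.80, adjusted p = 0.880).

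Macrophages, a class added after its values were seen, held Cxcl13 mainly in 1 library. Cxcl13 stood at 17.2, 28.4, 36.7 and 46.5 CPM in Ad-Lib libraries 1, 3, 5 and 7 and at 1108, 12.9, 12.9 and 9.50 in TAN libraries 2, 4, 6 and 8. TAN 2 was thus far above all others while the remaining TAN libraries were below every Ad-Lib library. With all libraries the log2 change was 3.32 (SE 1.07, adjusted p = 0.129). Without TAN 2 it was -1.44 (SE 0.28, adjusted p = 0.0365), so the direction rests on that library. In TAN 2, 173 of 441 macrophages (39.2%) held 3255 Cxcl13 UMIs, and 86.1% of these cells had a UMI of Lyve1 and 52.6% of Timd4, transcripts of resident macrophages, against 32.8% and 5.97% of the TAN 2 macrophages without Cxcl13. An APC marker UMI was found in 27.7% of the former and 26.1% of the latter. The 6 Dpp4+ APC markers summed to 708 CPM in the former and 113 in the latter, mainly through Cd55 (623 and 45.8 CPM), while Dpp4 was at 0.839 and 2.29 and Pi16 at 5.03 and 8.59. Over all macrophages these markers summed to 355 CPM in TAN 2 and 86.1 to 121 in the other libraries, and their part in the Cxcl13 level was not tested. In the other 7 libraries, 2.90% to 4.57% of macrophages had a Cxcl13 UMI. In cDC1 cells, a conventional dendritic type, TAN 2 also stood alone, with 158 Cxcl13 UMIs in 12 cells (901 CPM) and 0 UMIs in each of the other 7 libraries. In macrophages 0.732% of the 9967 genes tested were called.

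Ccl19 was highest in F3+ APCs (142 ± 33.1 CPM, n = 8) and Icam1+ APCs (87.9 ± 37.0), with migratory dendritic cells at 78.5 ± 36.0 (n = 4) and Dpp4+ APCs apart from these at 12.4 ± 3.73. In Icam1+ APCs it stood at 72.7, 71.2, 59.8 and 72.3 CPM in Ad-Lib and 94.0, 83.6, 176 and 73.7 in TAN. TAN 6 was the highest and the groups did not overlap, but TAN 8 was only just above Ad-Lib 1. The difference was not called (log2 0.55, SE 0.20, adjusted p = 0.156), and without TAN 8 it was (log2 0.71, adjusted p = 0.0477). In F3+ APCs Ccl19 was at 110 to 148 CPM in Ad-Lib and 121 to 215 in TAN (log2 0.23, SE 0.16, adjusted p = 0.718), and in Dpp4+ APCs the log2 change was -0.16 (SE 0.24, adjusted p = 0.889). Of the 10464 APCs, 2655 had a Ccl19 UMI, 2301 a Cxcl13 UMI and 522 both, and 3 had Ccl19 together with Ccl21a.

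**Figure D3:**
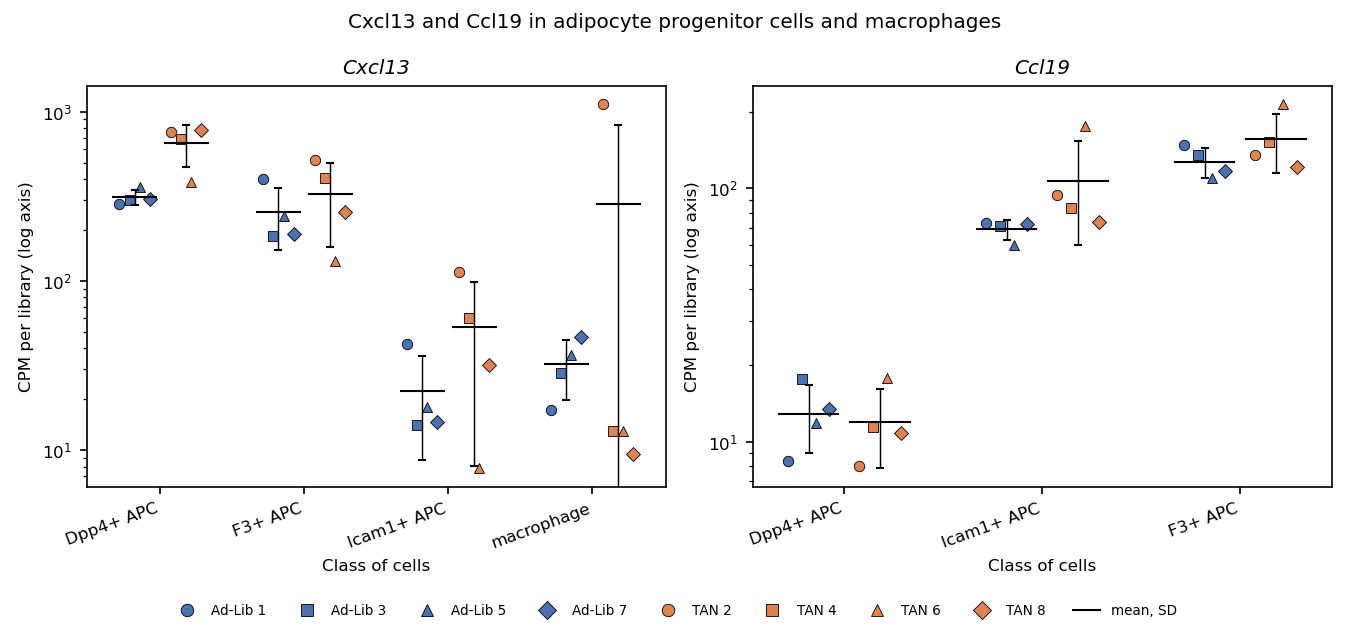
Cxcl13 (left) and Ccl19 (right) in CPM per library on a log axis, by class of cells; each symbol is a library, blue Ad-Lib and orange TAN, with the mean and SD in black (the lower SD arm of TAN macrophages runs off the log axis). In Dpp4+ APCs all TAN libraries lie above Ad-Lib for Cxcl13, and in macrophages TAN 2 alone stands at 1108 CPM with the other TAN libraries at 9.50 to 12.9.

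Most Ccl21a UMIs were in a few cells with lymphatic endothelial markers. Its 952 UMIs were in 49 cells, and the 10 highest held 90.4% of them. The lymphatic class was 11 cells of endothelial clusters, each with at least 3 of 6 markers (Prox1, Lyve1, Mmrn1, Flt4, Reln and Pdpn), and it held 828 of the Ccl21a UMIs (87.0%), at 5210 to 23714 CPM in the libraries with such cells. The class depended on the processing: 9 of the 11 cells were called as doublets and the other two went unnamed once doublets were removed, and all 11 fell in an unnamed cluster at a mitochondrial limit of 20%, so that it held 0 cells under both. All 12 cells with over 10 Ccl21a UMIs had an Mmrn1 UMI, and 7 had one of Prox1, the transcription factor of lymphatic identity. The 101 other cells with a Prox1 UMI held 0 Ccl21a UMIs. With 0 to 2 lymphatic cells a library, Ad-Lib and TAN could not be compared within the class. Over all cells, the Ccl21a level was 0.0769 to 9.87 CPM in Ad-Lib and 0.994 to 6.93 in TAN (log2 -0.30, SE 0.88, adjusted p = 0.836).

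Of the 11 lymphatic cells, 9 had 27 to 199 Ccl21a UMIs each and 2 had 0. Those 2, in Ad-Lib 3 and TAN 4, had 6 Prox1 UMIs each and no UMI of Mmrn1 or Reln, and they were the ones with Glycam1, a mucin of lymph node vessels, at 35 and 1 UMIs. Over all 36370 cells, Glycam1 was in 6 cells (40 UMIs), Madcam1, another node vessel adhesion molecule, in 15 cells (32 UMIs), and Chst4, a sulfotransferase of high endothelial venules, had 0 UMIs. Fut7, checked together with these, was in 191 cells (222 UMIs), of which 1 was blood endothelial and 0 were lymphatic. Of the 40 Glycam1 UMIs, 35 were in that single cell of Ad-Lib 3, which was also the Ad-Lib library with the most T, B and migratory dendritic cells (the shares follow). Whether lymphocytes in any library came from a node was not tested.

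Receptors were read beside the lymphocytes that carry them, since these differed between libraries. T cells made up 2.45%, 9.36%, 3.71% and 2.50% of cells in Ad-Lib libraries 1, 3, 5 and 7 and 5.81%, 18.7%, 26.1% and 9.87% in TAN libraries 2, 4, 6 and 8 (exact two-sided permutation p = 0.0571, adjusted over 4 shares 0.114). B cells made up 0.544%, 14.5%, 2.08% and 0.673% in Ad-Lib and 3.40%, 11.8%, 12.2% and 13.4% in TAN (exact permutation p = 0.200, adjusted p = 0.257). Ad-Lib 3 was within or near the TAN range in both. Naive-like T cells, named from naive markers that did not include Ccr7, were 0.794%, 43.0%, 9.93% and 8.60% of T cells in Ad-Lib and 45.4%, 66.7%, 69.8% and 46.0% in TAN, without overlap (exact permutation p = 0.0286, the smallest possible, adjusted p = 0.114). At that smallest p a single share cannot fall under 0.05 after adjustment over 4 shares, so its adjusted value says little. Migratory dendritic cells were 0.0778% to 0.879% of cells in Ad-Lib and 0.0463% to 3.11% in TAN (exact permutation p = 0.257).

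Ccr7, the homing receptor of naive T cells and migrating dendritic cells, was highest in migratory dendritic cells (1372 ± 293 CPM, n = 4), then naive-like T cells (281 ± 36.9, n = 6), then B cells (165 ± 62.5, n = 8), and the first 2 were each apart from the next class. In T cells as a whole Ccr7 stood at 16.3, 137, 45.6 and 55.7 CPM in Ad-Lib libraries 1, 3, 5 and 7 and at 156, 195, 206 and 222 in TAN libraries 2, 4, 6 and 8. Every TAN library was above every Ad-Lib library, with Ad-Lib 3 the nearest. The difference fell just short of the call (log2 1.5, SE 0.38, adjusted p = 0.0506), and it passed without Ad-Lib 3 (log2 2.56, adjusted p = 6.49e-05), without TAN 2 (log2 1.56, adjusted p = 0.0300) and with T cells gated by markers in each cell (log2 1.59, adjusted p = 0.0460). Of the 8719 genes tested in T cells, 2.61% were called and 2.80% had every TAN library above every Ad-Lib library.

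Within naive-like T cells the Ccr7 level in the libraries that held at least 10 of them was 259 CPM in Ad-Lib 3 and 301 in Ad-Lib 5, and 291, 253, 243 and 341 in TAN 2, 4, 6 and 8. These overlapped, and no test was made with 2 Ad-Lib libraries. In the other T cells Ccr7 stood at 6.56, 50.9, 13.8 and 27.0 CPM in Ad-Lib and 45.9, 95.6, 136 and 123 in TAN, with Ad-Lib 3 above TAN 2. The difference was not called (log2 1.88, SE 0.38, adjusted p = 0.0530). It was called without Ad-Lib 3 (log2 2.94, adjusted p = 0.00266), without TAN 2 (log2 2.07, adjusted p = 0.00224) and in DESeq2 (log2 2.05, adjusted p = 0.0499). Naive T marker transcripts in the other T cells summed to 289 to 467 CPM in Ad-Lib and 361 to 731 in TAN, and their part in the Ccr7 difference was not tested. Of the 7515 genes tested in other T cells, 0.146% were called.

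**Figure D4:**
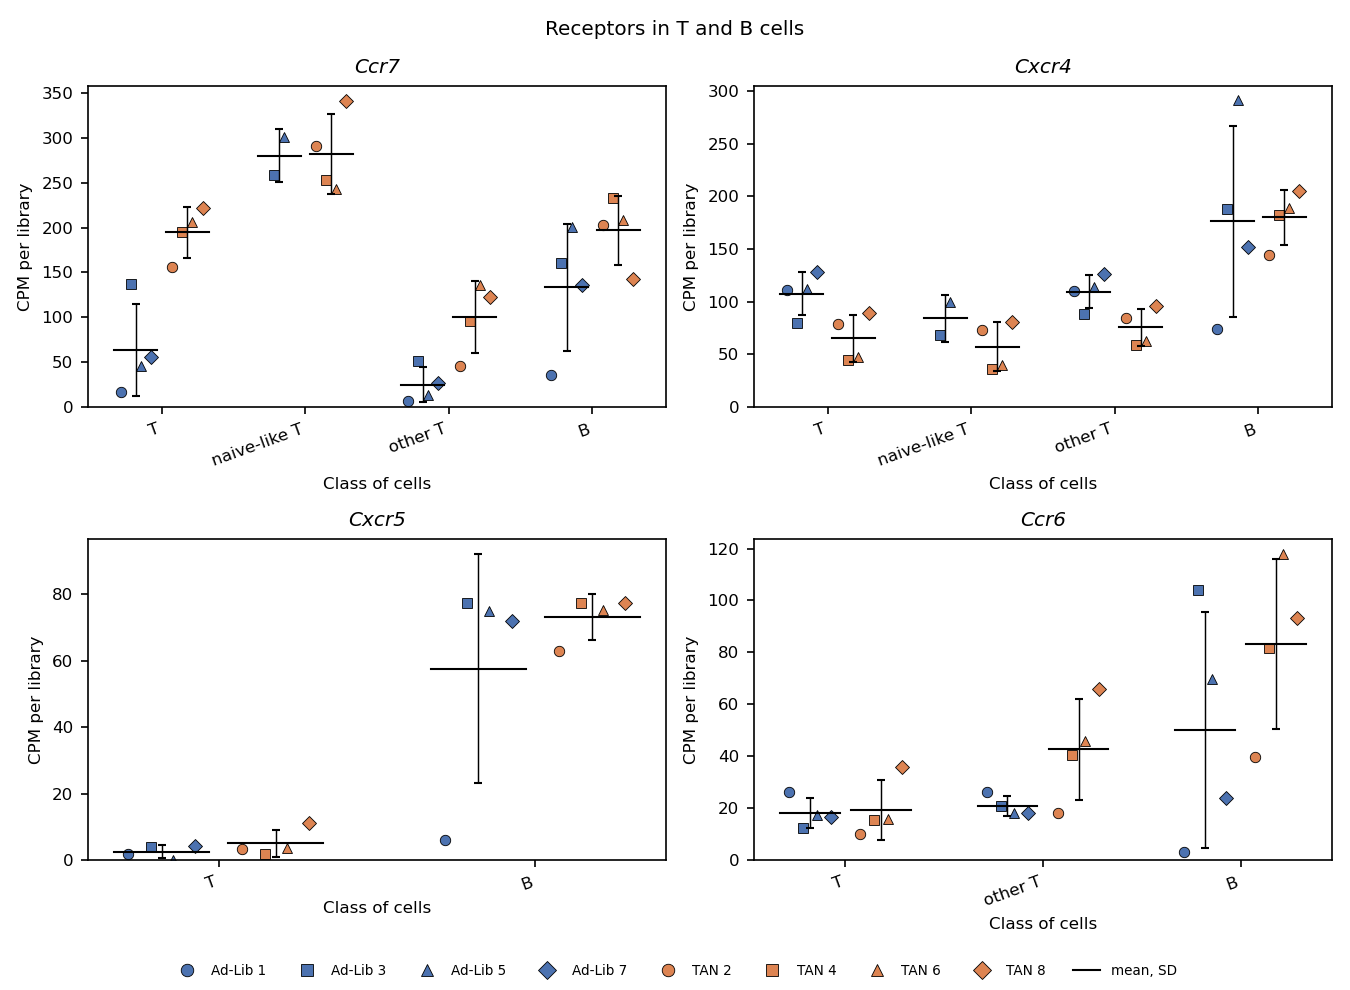
Ccr7, Cxcr4, Cxcr5 and Ccr6 in CPM per library in T cells, their naive-like and other subsets, and B cells; each symbol is a library with at least 10 cells of the class, blue Ad-Lib and orange TAN, with the mean and SD in black. Ccr7 separates the groups in T cells as a whole (16.3 to 137 CPM against 156 to 222) and not within naive-like T cells, and Ad-Lib 1 has the lowest B-cell value for each receptor.

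In migratory dendritic cells the libraries with at least 10 cells had Ccr7 at 1445 CPM (Ad-Lib 3) and at 1091, 1199 and 1751 (TAN 4, 6 and 8). No test was made, since the limit set was 3 such libraries a group. In dendritic cells as a whole the log2 change of Ccr7 was 0.97 (SE 0.60, adjusted p = 0.685), in a class where 0% of 7306 genes were called (edgeR, with 521 genes at an unadjusted p under 0.05, and 1 called in DESeq2). Migratory cells made up 54 of the 353 dendritic cells in Ad-Lib and 255 of the 594 in TAN. Their part in the Ccr7 value was not tested. Across whole libraries, where more carrier cells and more transcript per cell cannot be told apart, Ccr7 stood at 17.7, 356, 59.5 and 34.4 UMIs per 1000 cells in Ad-Lib libraries 1, 3, 5 and 7 and at 114, 426, 732 and 347 in TAN libraries 2, 4, 6 and 8. Ad-Lib 3 was above TAN 2 and TAN 8, so the groups overlapped. As CPM over all cells, Ccr7 gave log2 2.11 (SE 0.99, adjusted p = 0.216), and without Ad-Lib 3 log2 3.94 (adjusted p = 0.0470). None of the 9 members was called over all cells, where 0.0268% of 14911 genes were.

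**Figure D5:**
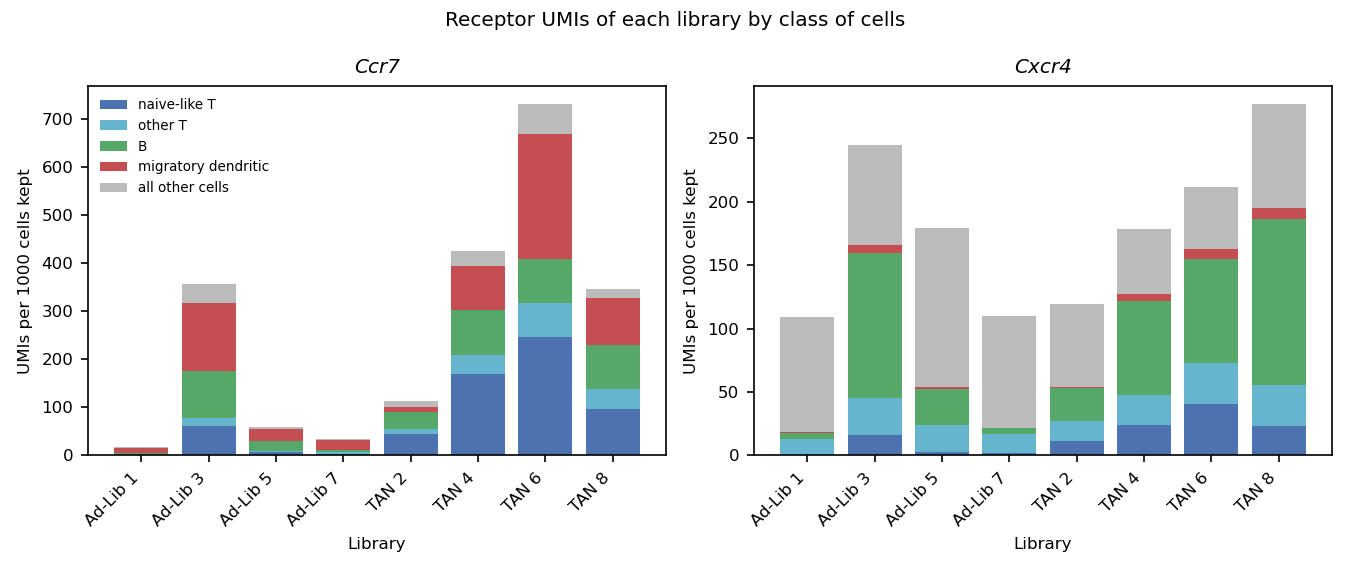
UMIs of Ccr7 (left) and Cxcr4 (right) per 1000 cells kept in each library, stacked by the class of cells that held them. Ccr7 ranged from 17.7 in Ad-Lib 1 to 732 in TAN 6 and lay mostly in naive-like T, B and migratory dendritic cells, and Cxcr4 ranged from 109 to 277 with a larger part in all other cells.

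Cxcr4, the signalling receptor for Cxcl12, was highest in neutrophils (585 ± 225 CPM, n = 5), apart from B cells (178 ± 61.7) and monocytes (147 ± 56.9), which overlapped. In T cells it stood at 111, 80.1, 112 and 128 CPM in Ad-Lib and at 79.3, 44.7, 47.5 and 89.4 in TAN. The groups overlapped through TAN 8 and Ad-Lib 3. The difference was not called (log2 -0.59, SE 0.19, adjusted p = 0.108), and without Ad-Lib 3 it was (log2 -0.69, adjusted p = 0.0414). In the other T cells the log2 difference was -0.45 (SE 0.15, adjusted p = 0.192) and in macrophages -0.51 (SE 0.14, adjusted p = 0.0796). In B cells Cxcr4 was at 73.8 to 292 CPM in Ad-Lib and 144 to 205 in TAN (log2 -0.15, SE 0.21, adjusted p = 1.000), and in blood endothelial cells at 29.5 to 35.4 and 21.1 to 39.5 (log2 -0.18, SE 0.15, adjusted p = 0.609).

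Cxcr5, the Cxcl13 receptor, was highest in B cells (65.4 ± 24.5 CPM, n = 8), with other T cells next (5.50 ± 5.93, at most 18.7). All B-cell libraries but Ad-Lib 1 were above every library of the other T cells. In B cells it stood at 5.90, 77.5, 75.1 and 71.9 CPM in Ad-Lib and 63.0, 77.5, 75.3 and 77.3 in TAN. The 7 libraries other than Ad-Lib 1 were close together, the groups overlapped, and no change was called (log2 0.17, SE 0.28, adjusted p = 1.000). The B class of Ad-Lib 1 was 28 cells, with plasma cell markers at a summed 29704 CPM and with Ms4a1, a B-cell surface marker, at 248 CPM. Ad-Lib 7, with 25 B cells, also had high plasma cell markers (22426 CPM) beside Ms4a1 at 583 CPM and Cxcr5 at 71.9. The remaining 6 libraries had plasma cell markers at 763 to 10991 CPM and Ms4a1 at 763 to 1032. Without Ad-Lib 1 the Cxcr5 value was log2 -0.04 (adjusted p = 1.000). Ccr7 and Ccr6 in B cells were not called (log2 0.43 and 0.30, adjusted p = 1.000 for both), and 0% of the 7753 genes tested in B cells were (edgeR, with 178 genes at an unadjusted p under 0.05, and 0 called in DESeq2). Cxcl12, at 0 to 5.90 CPM in Ad-Lib and 8.60 to 15.4 in TAN from 97 UMIs in B cells, was not called either (log2 1.08, SE 0.51, adjusted p = 1.000), though 1.92% of genes had every TAN library above every Ad-Lib library.

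Ccr6 was highest in B cells (66.7 ± 40.7 CPM, n = 8), overlapping with the other T cells (31.7 ± 17.5), which were apart from the next class. In the other T cells it stood at 26.3, 20.9, 18 and 18 CPM in Ad-Lib and 18.1, 40.4, 45.9 and 65.8 in TAN. TAN 2 lay within the Ad-Lib range and the remaining TAN libraries above it. The difference was not called (log2 1.14, SE 0.29, adjusted p = 0.101), and without TAN 2 it was (log2 1.31, adjusted p = 0.00277). In T cells as a whole Ccr6 gave log2 0.33 (SE 0.34, adjusted p = 0.674).

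Among other genes of these pathways, 4 were called in T cells, 1 in the other T cells and 1 in mural cells. Of the listed other homeostatic chemokine axes (10 genes in the files), organisers and survival factors of the TNF family and others (12 genes), positioning and egress genes (9) and node stroma genes (9), none of the 5, 5, 1 and 2 genes tested was called in Dpp4+ APCs, and none in Icam1+ APCs, F3+ APCs, blood endothelial, dendritic, B or macrophage cells. The list medians in Dpp4+ APCs were log2 0.06, 0.32, 0.11 and -0.30, beside 0.00 over all genes. In F3+ APCs they were 0.45, 0.21, -0.29 and -0.20, beside 0.01, and in blood endothelial cells -0.38, -0.28, 0.01 and 0.63, beside -0.00. In T cells they were -0.35, -0.19, 0.43 and -0.50, beside 0.00 over all genes. The 4 genes called in T cells were 3 of the 4 tested among the other axes and 1 of the 5 for positioning and egress, in a class where 2.61% of all genes tested were called. Ccr9, a gut homing receptor, rose from 6.62 ± 4.79 to 24.1 ± 5.11 CPM (log2 1.66, adjusted p = 0.0258), and S1pr1, which guides lymphocyte egress, from 105 ± 52.0 to 240 ± 29.7 (log2 1.21, adjusted p = 0.0344). Cxcr6, a receptor of tissue-resident T cells, fell from 251 ± 62.4 to 118 ± 26.4 CPM (log2 -0.91, adjusted p = 0.0202), and Ccr10, a skin homing receptor, from 65.6 ± 15.4 to 26.3 ± 14.4 (log2 -1.35, adjusted p = 0.0332). The make-up of the T class moved with these: the 6 resident T markers, of which Cxcr6 is one, summed to 3813 to 6736 CPM in Ad-Lib and 1348 to 3721 in TAN (3 of 6 called lower), and the 6 naive T markers to 305 to 1130 and 1045 to 1628 (1 of 6 called higher). Their part in the 4 calls was not tested. In the other T cells S1pr1 was called (log2 0.91, adjusted p = 0.0492), and none of the 2 genes tested from the other axes was, in a class where 0.146% of genes were called. In mural cells the chemokine Cxcl14 rose (log2 1.58, adjusted p = 0.0107), in a class where 0.816% of 8941 genes were called. Values are means ± SD with n = 4 libraries a group.

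Genes whose levels over 21 classes were most like those of a member were named by Pearson's r of mean log2(CPM + 1), as a description over classes that share libraries. For Cxcl12 they were Kitl (0.968), the stem cell factor, and Epn2 (0.964). For Ackr3 they were Sulf1 (0.979) and Ddr2 (0.968), and for Cxcl13 Adam33 (0.965) and Dnm1 (0.956). For Ccl19 they were Dkk2 (0.934) and Gxylt2 (0.909). Among the receptors, Cxcr5 was most like Pou2af1 (0.964) and Cr2 (0.936), both B-cell genes, Ccr7 like Slamf1 (0.907) and Insl6 (0.860), Cxcr4 like Bcl2l11 (0.901) and Fmnl1 (0.886), and Ccr6 like Blk (0.887) and Ctla4 (0.812). None is named for Ccl21a, because the lymphatic class, which held most of its UMIs, had no library with 10 cells and was not among the 21.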

How the data were processed

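The authors deposited, for each of the 8 libraries, a filtered 10x matrix of raw UMI counts per gene and cell barcode. Per the labels, reads were processed with Cell Ranger 3.0.2 against GRCm38 (mm10), while the file headers name Cell Ranger 6.0.1; Seurat is named without a version. Barcodes with 700 to 30000 UMIs, 200 to 8000 genes and under 10% mitochondrial UMIs were kept. Cells were clustered in scanpy 1.11.5 (2000 variable genes without the 9 members, 30 components, 20 neighbours, Leiden resolution 1) and named from marker lists; naming limits were set after the clusters were seen. Doublets were called and removed only as an alternative. UMI counts were summed per library and class, for libraries with at least 10 cells and at least 3 libraries a group, and tested in edgeR 4.0.16 (TMM, filterByExpr, quasi-likelihood F-test, Benjamini-Hochberg over all genes tested), Ad-Lib against TAN, after a test on simulated data. Libraries were the replicates. The named genes were the members, called genes of related lists (at most 4 a class by adjusted p), and 2 genes per member by Pearson's r among genes of at least 20 CPM in some class. The members, lists and tests were chosen with earlier results of these data known. Alternatives were DESeq2 1.42.0, no low-count filter, a mitochondrial limit of 20%, resolution 2, doublets removed, marker gates per cell and each library left out. The tested macrophage and mural classes and the subsets of cells without other cells' markers were added after seeing the data.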

Additional observations from a re-analysis of the deposited data

Results flagged for a closer look

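In groups of 4 libraries, a library was noted where its gap to the nearest other, divided by the group's range, was above Dixon's limit for 4 values. Of 92 groups tested, 12 had such a library, and chance gives about 1 in 20.

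The largest ratio was for Cxcl13 in macrophages, at 1108 CPM in TAN 2 against 9.50 to 12.9 in the other TAN libraries. Cxcl13 in Icam1+ APCs was at 42.4 CPM in Ad-Lib 1 against 14.0 to 17.9, and Ccl19 in Icam1+ APCs at 59.8 in Ad-Lib 5 against 71.2 to 72.7. Cxcl12 in mural cells was at 790 CPM in Ad-Lib 3 against 876 to 880.

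Over all cells, Ad-Lib 3 stood above the other Ad-Lib libraries for the lymphocyte receptors: Cxcr5 at 8.71 CPM against 0.110 to 1.27, Ccr7 at 56.4 against 2.50 to 8.69 and Ccr6 at 12.3 against 0.578 to 1.58. It did so too in its share of B cells (14.5% against 0.544% to 2.08%) and of migratory dendritic cells (0.879% against 0.0778% to 0.108%). Among TAN libraries, TAN 2 had the lowest share of B cells (3.40% against 11.8% to 13.4%). Cxcr5 within B cells was at 5.90 CPM in Ad-Lib 1 against 71.9 to 77.5, and at 63.0 in TAN 2 against 75.3 to 77.5.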

How the results depend on the processing

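No paired analysis was possible because the groups share no replicate numbers. The calls of Cxcl12 and Cxcl13 in Dpp4+ APCs and of Ackr3 in blood endothelial cells held under every alternative run. With each library left out in turn, 2 members were called in Dpp4+ APCs and 1 in F3+ APCs every time, 0 to 2 in Icam1+ APCs, 1 to 2 in blood endothelial cells, 0 to 2 in T cells, 0 to 2 in other T cells, 0 to 2 in macrophages and 0 to 1 over all cells. Doublet removal left 0 called in F3+ APCs. Without the low-count filter 1 was called in Icam1+ APCs (Cxcl13, log2 1.26), 1 in T cells (Ccr7, log2 1.54) and 2 in macrophages; marker gates gave 1 in T cells, and DESeq2 gave 1 in other T cells. Over all genes, DESeq2 called 776 in all cells together (edgeR 4), 350 in T cells (edgeR 228) and 48 in other T cells (edgeR 11).

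Cxcl13 in macrophages, uncalled at log2 3.32, ranged over -1.44 to 3.73 with a library left out and was called as lower without TAN 2. Directions of small, uncalled changes also turned. Ackr3 in Icam1+ APCs was log2 0.02 at resolution 2 and -0.19 to 0.04 with a library left out. Cxcr5 in B cells was -0.00 with doublets removed, -0.01 with marker gates and -0.04 to 0.35 with a library left out. Cxcl12 was 0.12 in macrophages with marker gates (-0.15 to 0.03 with a library left out), and in mural cells -0.00 at the 20% mitochondrial limit, -0.04 with doublets removed and -0.29 with marker gates (-0.01 to 0.06). With a library left out, Ccl19 in Dpp4+ APCs ranged over -0.35 to 0.07, Cxcl13 in F3+ APCs over -0.00 to 0.68, Cxcr4 over -0.03 to 0.35 in dendritic and -0.23 to 0.12 in B cells, Ccr6 in T cells over -0.03 to 0.51, and Ccl21a over all cells over -0.78 to 0.24. Causes were not tested, beyond the fewer libraries or cells each holds.

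Depth limits the rare classes: 11 lymphatic cells and 4 or fewer migratory dendritic cells in 4 libraries gave no test. Counts cover molecules captured, not protein.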
